A study of Mus musculus with 24 samples.

Results

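Ccn1, Ccn2, Ccn3 and Adcyap1 are 4 of the 37991 genes in a count table from the nucleus accumbens of mice, the ventral striatal region known for its role in reward and motivation. They were taken by their Ensembl IDs, under their older names Cyr61, Ctgf and Nov for the 3 Ccn genes. They were chosen by their log2 fold changes of Cre against GFP virus, which differed between the female and the male libraries of the experiment on Dnmt3a. Their values in that experiment are therefore given as a description with no p-value, and p-values on them are kept for the other experiment, which the choice did not use.

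RNA was sequenced in 24 libraries, 3 in each of 8 groups, and each library was made from the pooled mRNA of 4 mice on a C57BL/6J background. In the floxed experiment, all mice carried the Dnmt3a2lox/2lox alleles, in which loxP sites flank a part of the gene for a DNA methyltransferase, and all were stressed. Females and males received an adeno-associated virus (AAV) with Cre, which deletes the flanked part, or with GFP alone, which gave the groups Cre female, GFP female, Cre male and GFP male. No source used here names the promoter of the virus, and cells that the virus did not reach keep an intact Dnmt3a. In the second experiment, wild-type females and males were stressed or left as controls, which gave stressed females, control females, stressed males and control males. The series title names the stress as subchronic and variable, and no age is stated. The protocol names dorsal striatum beside nucleus accumbens for the tissue punches. Library totals were 28132563 to 59829070 counts in the floxed and 7116123 to 12145551 counts in the wild-type experiment, and the experiments were fitted apart.

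The proteins of the CCN family are secreted into the extracellular matrix, where they signal rather than build structure, by binding integrins, syndecans and growth factors. Ccn1 and Ccn2 are textbook targets of YAP and TAZ, the coactivators held back by the Hippo pathway, and of serum response factor (SRF), and Ccn1 is also an immediate early gene that cells switch on within minutes of a stimulus. In the cerebral cortex, Ccn2 marks the deepest neurons, those of layer 6b. Adcyap1 encodes PACAP, a neuropeptide with known roles in stress, which acts on the receptors encoded by Adcyap1r1, Vipr1 and Vipr2 to raise cyclic AMP through adenylyl cyclases, and which many excitatory neurons of the cortex make.

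All 4 genes are protein-coding in GENCODE M21 (GRCm38), on chromosomes 3 (Ccn1), 10 (Ccn2), 15 (Ccn3) and 17 (Adcyap1), so none neighbours another. On the opposite strand, Ccn2 overlaps the gene Gm15270, and since no source used here says whether reads were counted by strand, the counts of Ccn2 may hold reads of that gene. RefSeq's promoter table, on build GRCm38.p6, matched 2 of the 4 genes, and their windows are shown as a description. Over the floxed libraries, on which the genes were chosen, Adcyap1 followed Ccn2 and Ccn3, and Ccn1 did so far less. The 250 bases before the start of Ccn1 lie at chr3:145649986-145650235 on the minus strand, and those before the second listed start of Adcyap1 at chr17:93198918-93199167 on the plus strand. Both are printed 5′ to 3′, with the start just after the last base and motif matches in capitals.
Ccn1: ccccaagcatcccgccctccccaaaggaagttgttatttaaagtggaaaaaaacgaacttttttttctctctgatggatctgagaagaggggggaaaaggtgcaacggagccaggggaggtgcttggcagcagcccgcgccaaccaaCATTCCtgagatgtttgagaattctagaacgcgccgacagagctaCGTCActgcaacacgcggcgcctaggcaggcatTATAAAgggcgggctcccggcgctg
Adcyap1: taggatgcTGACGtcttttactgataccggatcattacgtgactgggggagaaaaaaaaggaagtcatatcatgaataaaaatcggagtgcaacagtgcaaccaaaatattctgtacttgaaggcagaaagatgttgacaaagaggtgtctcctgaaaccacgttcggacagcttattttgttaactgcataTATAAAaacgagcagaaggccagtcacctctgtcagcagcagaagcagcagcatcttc
Ccn1 held CATTCC, which is GGAATG, the motif of the TEAD partners of YAP, read on the opposite strand, at 103 to 98 bases before the start. It also held CGTCA, which is TGACG, the core of the cyclic AMP response element, read on the opposite strand, at 58 to 54 bases, and TATAAA, the TATA box, at 25 to 20 bases. Adcyap1 held TGACG at 242 to 238 bases and TATAAA at 58 to 53 bases. Of all 32851 RefSeq windows of this length, 17.8% held TGACG, 12.6% GGAATG and 7.59% TATAAA, with both strands searched except for TATAAA. The full response element TGACGTCA, which contains TGACG, the AP-1 motif TGANTCA and the CArG box of SRF were in neither window, and they were in 1.55%, 6.75% and 1.47% of all windows. CpG dinucleotides, the main sites of Dnmt3a, numbered 15 in the Ccn1 window and 7 in the Adcyap1 window, against a median of 6.

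Some libraries stood apart. Xist stood at 1234 to 1798 CPM (counts per 1000000 of the TMM-scaled library size) in floxed females, against 3.23 to 16.9 CPM in floxed males, and sex labels matched in all 24 libraries. Dnmt3a stood at 140 to 155 CPM in Cre females, against 155 to 169 CPM in GFP females, and at 137 to 143 CPM in Cre males, against 164 to 182 CPM in GFP males. The male difference in Dnmt3a passed (log2 fold change -0.30, SE 0.06, edgeR adjusted p = 0.0149) and the female one did not (-0.12, SE 0.06, edgeR unadjusted p = 0.0474, adjusted p = 0.829). The Cre effects on Dnmt3a in the 2 sexes did not differ by a margin that passed (females minus males 0.18, SE 0.08, edgeR adjusted p = 0.269). These gene counts include reads outside the deleted part and cells without virus. The 14 medium spiny neuron genes, which mark the main neurons of the striatum, were above 0 in all libraries. They summed to 3668 CPM in Cre male 2, against 6570 to 8587 CPM in the other floxed libraries. The 10 choroid plexus and ependyma genes summed to 2085 CPM in that library, against 54.8 to 186 CPM in the others. The 14 cortical excitatory neuron genes summed to 598 to 1098 CPM in Cre males, against 302 to 351 CPM in GFP males, and to 329 to 378 CPM in Cre females, against 344 to 355 CPM in GFP females. In bulk tissue, fewer cells of a type and less RNA per cell cannot be told apart.

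Ccn3, Adcyap1 and Ccn2 were far higher in Cre males than in GFP males. Differences between Cre and GFP females were smaller, and negative for Ccn2 and Adcyap1. Ccn3 stood at 56.4, 79.4 and 18.7 CPM in Cre males, against 2.28, 2.73 and 3.72 CPM in GFP males. The groups did not overlap, and the lowest Cre male library was Cre male 3. The fitted log2 fold change was 4.13 (SE 0.59), a 17.6-fold difference. In females, Ccn3 stood at 2.68, 2.17 and 6.16 CPM with Cre, against 4.09, 2.92 and 2.03 CPM with GFP, and these groups overlapped. The female log2 fold change was 0.31 (SE 0.60), and -0.30 without Cre female 3, its highest library.

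Adcyap1 had the lowest counts of the 4 genes. It stood at 4.51, 3.22 and 2.61 CPM in Cre males (171, 196 and 89 counts), against 0.204, 0.135 and 0.255 CPM in GFP males (6, 4 and 10 counts). The filter on low counts was met by the 3 Cre male libraries and by GFP females 1 and 2, and the 9 floxed libraries other than Cre males held 3 to 14 counts each. The log2 fold change in males was 4.07 (SE 0.38), a 16.8-fold difference. In females it stood at 0.0758, 0.249 and 0.286 CPM with Cre, against 0.400, 0.384 and 0.265 CPM with GFP, with overlap and a log2 fold change of -0.79 (SE 0.43).

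Ccn2 was the one gene of the 4 whose libraries separated in both sexes, in opposite directions. It stood at 11.8, 8.40 and 7.71 CPM in Cre males, against 2.11, 1.48 and 1.86 CPM in GFP males, with a log2 fold change of 2.35 (SE 0.25), a 5.10-fold difference. In females it stood at 1.54, 1.75 and 1.5 CPM with Cre, against 3.60, 1.95 and 2.03 CPM with GFP. All 3 Cre female libraries lay below all 3 GFP female libraries, by a narrow gap at the nearest pair. The female log2 fold change was -0.67 (SE 0.25), and -0.32 without GFP female 1, which held the highest value. Libraries separated downwards in females for 5.04% and upwards in males for 14.7% of the 17597 genes tested, and in opposite directions in the sexes for 249 genes (1.42%), with no overlap in either sex.

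Ccn1 differed least. It stood at 4.48, 4.09 and 5.07 CPM in Cre males, against 3.02, 3.30 and 3.11 CPM in GFP males. The male groups did not overlap, with a log2 fold change of 0.53 (SE 0.16), a 1.44-fold difference. In females it stood at 3.69, 4.56 and 3.89 CPM with Cre, against 3.32, 5.02 and 4.13 CPM with GFP. These groups overlapped fully, with a log2 fold change of -0.040 (SE 0.16). Against the female libraries, which spanned 3.32 to 5.02 CPM, 1 Cre male library lay just above, and all 3 GFP male libraries lay below.

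**Figure D1:**
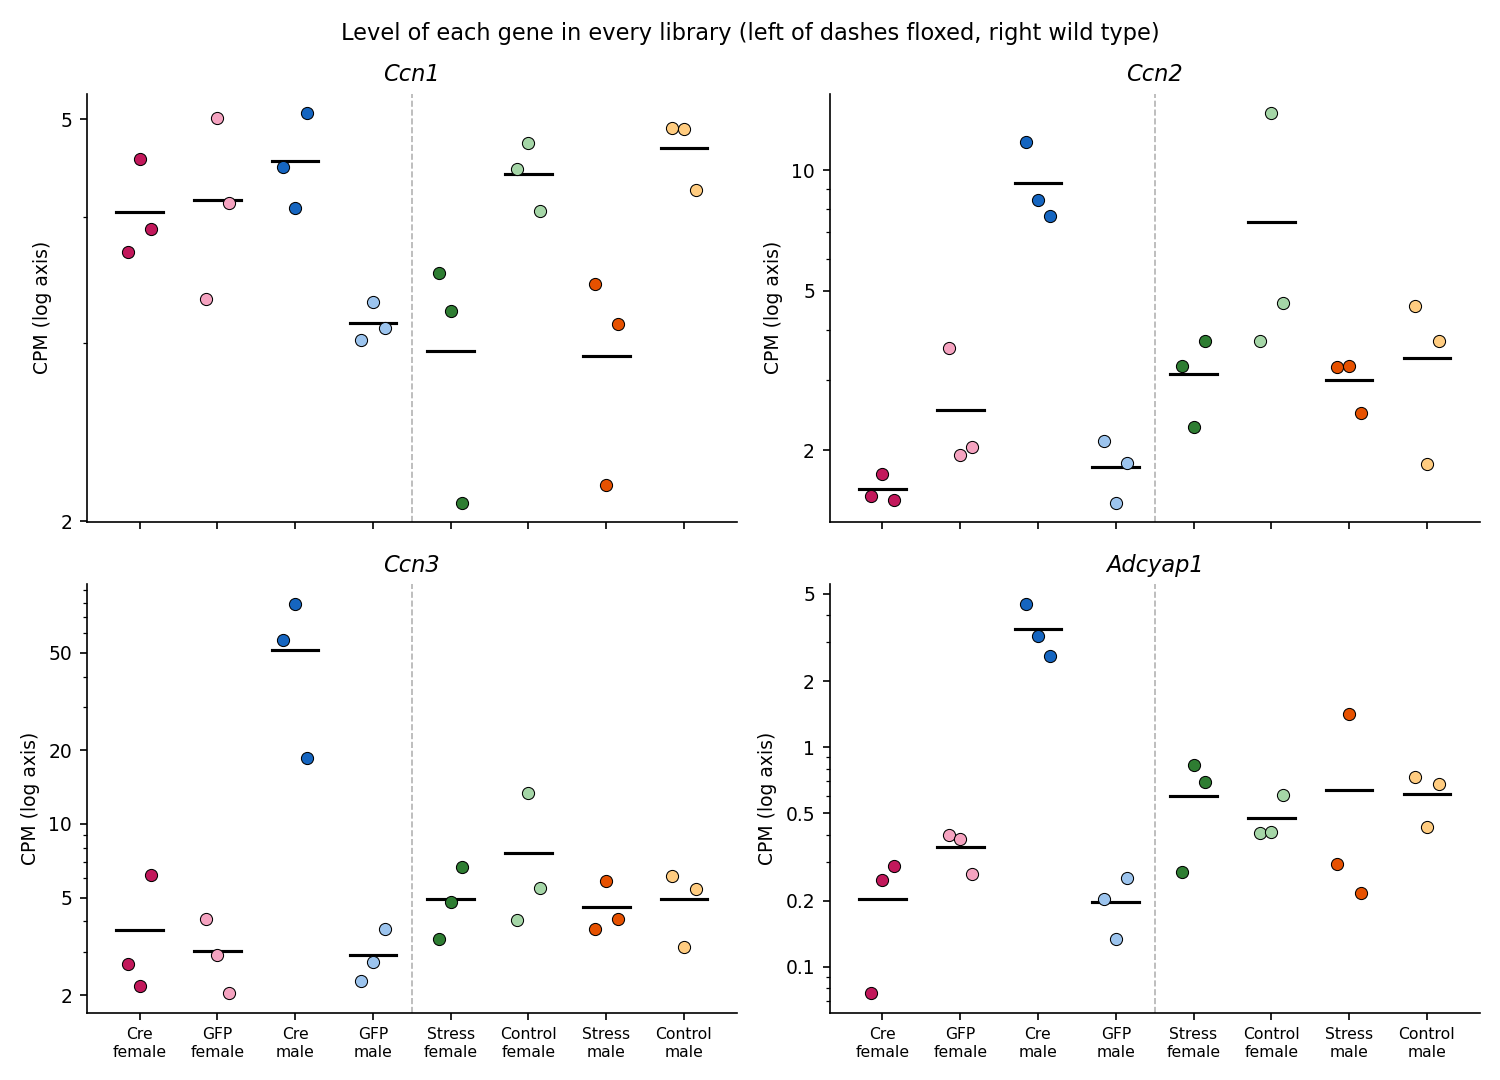
CPM of each gene (vertical log axis, a different range in each panel) in the 24 libraries, by group; points are libraries and bars are group means of 3. Ccn3 and Adcyap1 in Cre males lie above every other library, Ccn2 is also high in 1 control female library at 13.9 CPM, and Ccn1 is low in GFP males and in both stressed wild-type groups.

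The difference of the Cre effect between the sexes, females minus males on the log2 scale, was -0.57 (SE 0.22) for Ccn1, -3.02 (SE 0.36) for Ccn2, -3.82 (SE 0.83) for Ccn3 and -4.86 (SE 0.58) for Adcyap1. Comparing the sexes within each virus shows where these differences lie. Cre females minus Cre males came to -2.54 (SE 0.25) for Ccn2, -3.78 (SE 0.57) for Ccn3 and -4.07 (SE 0.38) for Adcyap1, but to -0.17 (SE 0.16) for Ccn1. GFP females minus GFP males came to 0.40 (SE 0.16) for Ccn1, 0.48 (SE 0.25) for Ccn2, 0.038 (SE 0.62) for Ccn3 and 0.79 (SE 0.44) for Adcyap1. So the larger sex gap of Ccn1 was between the GFP groups, and that of the other 3 genes between the Cre groups.

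**Figure D2:**
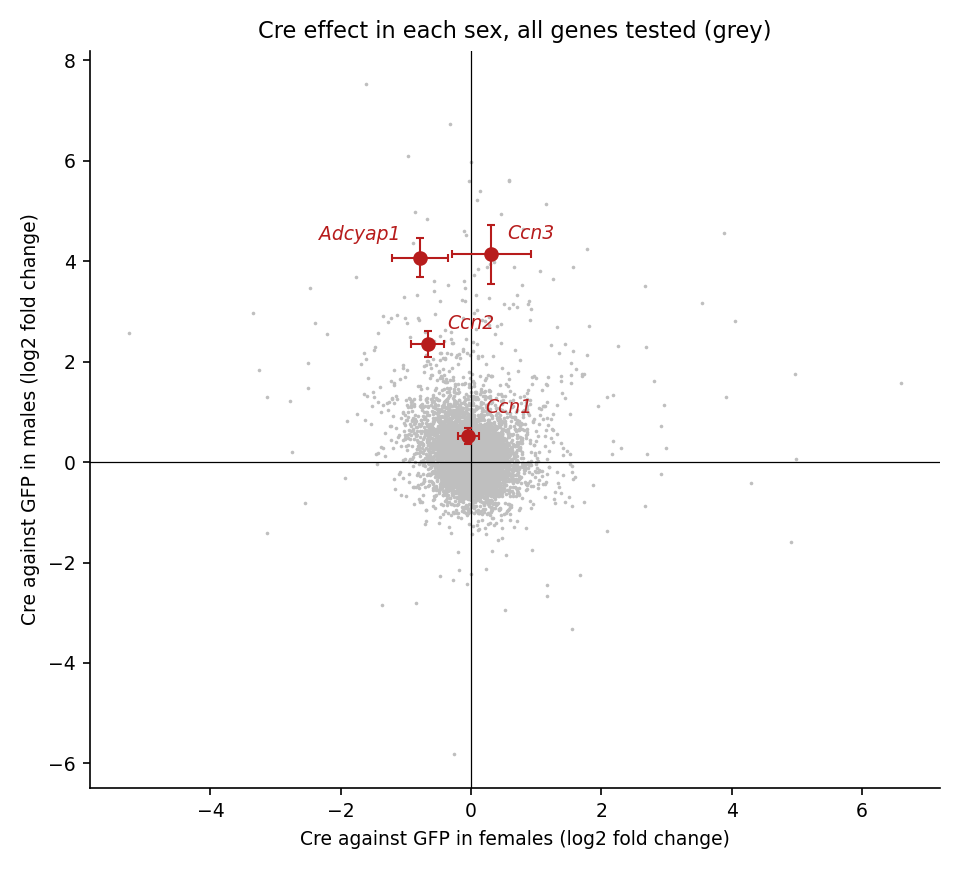
Log2 fold change of Cre against GFP in females (horizontal) and in males (vertical) for all genes tested (grey) and for the 4 genes (red, with bars of 1 SE). Ccn3, Adcyap1 and Ccn2 lie at 4.13, 4.07 and 2.35 in males and within 1 unit of 0 in females, and Ccn1 lies at 0.53 in males, inside the grey cloud.

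Among all 17597 genes tested with edgeR's quasi-likelihood test, 872 (4.96%) passed an adjusted p of 0.05 for Cre against GFP in males, 647 of them higher (3.68%) and 225 lower (1.28%). Leaving out single libraries gave 93 calls without GFP male 2, 165 without GFP male 3, 246 without GFP male 1, 318 without Cre male 1, 341 without Cre male 2 and 1303 without Cre male 3. For females the count was 0 (0%), with 1049 genes (5.96%) at an unadjusted p under 0.05 and 32 calls by DESeq2. The difference between the sexes was called for 2 genes (0.0114%), which were Ccn2 and Adcyap1, and by DESeq2 for 610 genes. With single libraries left out, edgeR called 0 to 2 genes, except 20 without Cre female 3, 144 without GFP female 2 and 500 without Cre male 3. As these genes were picked for that difference, nothing is read from their being called.

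Within a library, the ratio of 2 genes' counts does not depend on depth or scaling. There were 4.8, 9.45 and 2.42 Ccn3 counts per Ccn2 count in Cre males, against 1.08, 1.84 and 2.00 in GFP males, so Ccn3 was ahead in the Cre males by more than in any GFP male library. In the Cre females the ratio was 1.74, 1.24 and 4.10, against 1.13, 1.5 and 1.00 in the GFP females, with Cre female 3 as the high one. The ratio of Ccn2 to Ccn1 was 2.62, 2.06 and 1.52 in Cre males, against 0.697, 0.449 and 0.598 in GFP males. In Cre females the ratio of Ccn2 to Ccn1 was 0.418, 0.383 and 0.387, against 1.09, 0.388 and 0.493 in GFP females, and 1 GFP value lay inside the Cre range.

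Per kilobase of exon, which allows genes to be compared, the order of the levels differed between Cre and GFP males. Ccn3 averaged 18.0 ± 10.7 CPM per kilobase in Cre males, Ccn2 3.25 ± 0.76, Ccn1 2.25 ± 0.25 and Adcyap1 0.912 ± 0.257 (SD, n = 3 libraries). In GFP males Ccn1 came first with 1.56 ± 0.07 CPM per kilobase, then Ccn3 with 1.01 ± 0.26, Ccn2 with 0.635 ± 0.110 and Adcyap1 with 0.0524 ± 0.0160 (SD, n = 3). The spread of Ccn3 among the Cre males was 59.6% of its mean, where counting error alone would give 1.98%. For Adcyap1 in GFP males the spread was 30.5% and counting error would give 38.7%, so those 3 libraries could not be told apart at their depth.

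The other members of both families gave a few changes in males and none in females. Ccn4 (Wisp1), another matricellular CCN gene, rose with Cre in males to 0.870, 0.985 and 0.410 CPM, against 0.170, 0.135 and 0.204 CPM in GFP males (log2 fold change 2.14, SE 0.40, adjusted p = 0.015). Its female log2 fold change was -0.69 (SE 0.38, adjusted p = 0.859), and the difference between the sexes did not pass (-2.83, SE 0.56, adjusted p = 0.0756). The log2 fold change of Ccn6 was 0.019 (SE 0.35) in males, and Ccn5 was too low to be tested. The other tool, DESeq2, did not call Ccn4 or Ccn6, and Ccn4 also lost its call without Cre male 2. The 13 tested CCN receptor genes, integrins, syndecan 4, Lrp1, Lrp6 and Notch1, gave 0 calls in males by edgeR, 3 at an unadjusted p under 0.05 and 1 call by DESeq2. The smallest p among them in males was that of Itgb3 (log2 fold change 0.75, SE 0.21, adjusted p = 0.0662).

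Of the 11 genes for PACAP and VIP signalling, edgeR called 1 in males, Vip, which rose, with 5 at an unadjusted p under 0.05 and 3 calls by DESeq2. Vip, the neuropeptide most like PACAP, stood at 7.93, 7.96 and 3.28 CPM in Cre males, against 0.578, 0.875 and 0.816 CPM in GFP males (log2 fold change 3.07, SE 0.47, adjusted p = 0.00923). Cre females had 0.683, 0.819 and 2.15 CPM of Vip, against 0.915, 0.590 and 0.973 CPM in GFP females, and the difference between the sexes did not pass (-2.50, SE 0.67, adjusted p = 0.126). Adcyap1r1, the main receptor of PACAP, averaged 307 ± 17 CPM in both Cre males and GFP males, and 302 ± 33 CPM in Cre females, against 317 ± 30 CPM in GFP females (SD, n = 3 each). Its log2 fold change was 0.00 (SE 0.09) in males and -0.070 (SE 0.09) in females. The receptors Vipr1 and Vipr2 stood at -0.10 (SE 0.16) and 0.070 (SE 0.23) in males, and neither passed. Among the 8 adenylyl cyclase genes, Adcy1 (0.81, SE 0.13, adjusted p = 0.00991) and Adcy7 (0.47, SE 0.11, adjusted p = 0.0401) rose in males by edgeR, DESeq2 also called 2 of these genes, and Adcy7 did not pass without Cre male 2.

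The genes around YAP, TAZ and SRF, for which Ccn1 and Ccn2 are common readouts, mostly did not pass. The 16 Hippo pathway genes gave 0 calls in males by edgeR, 5 at an unadjusted p under 0.05 and 1 by DESeq2, with a median log2 fold change of 0.10, and Yap1 itself stood at 0.34 (SE 0.09, adjusted p = 0.0514). Of 19 other YAP and TAZ target genes tested, 3 rose in males (3.68% of all genes tested rose). They were the kinase gene Nuak2 (1.08, SE 0.21, adjusted p = 0.0165), Ccdc80 (0.64, SE 0.13, adjusted p = 0.0203) and Fjx1 (0.33, SE 0.08, adjusted p = 0.0426), and the median of the list was 0.19. Of 15 SRF and MRTF genes, Fhl2, a LIM-domain cofactor, rose in males (1.58, SE 0.19, adjusted p = 0.00348), and the median was -0.10. The 13 TGF-beta pathway genes gave 0 calls by edgeR, 4 at an unadjusted p under 0.05 and 1 by DESeq2, with a median of 0.19. Of 14 other matricellular genes, Thbs2 (1.03, SE 0.17, adjusted p = 0.0109) and Spon1 (0.70, SE 0.14, adjusted p = 0.0222) rose and Thbs3 (-0.37, SE 0.08, adjusted p = 0.0267) fell. DESeq2 called 4 of the YAP and TAZ targets, 2 of the SRF and MRTF genes and 4 of the matricellular genes in males. Without Cre male 2, Nuak2, Fhl2, Thbs2 and Spon1 passed again, and Ccdc80, Fjx1 and Thbs3 did not. The male medians without that library were 0.13 for the Hippo, 0.045 for the YAP and TAZ target, 0.015 for the SRF and MRTF and 0.038 for the TGF-beta genes. In females these lists gave 0 calls by edgeR, up to 2 genes a list at an unadjusted p under 0.05, and 1 call by DESeq2, in the SRF and MRTF list. The median over all genes tested was 0.00 in both sexes.

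Among 23 immediate early genes, 5 rose in males by edgeR, and DESeq2 called 6. They included Jun (0.98, SE 0.11, adjusted p = 0.00236), Bdnf, the neurotrophin (2.83, SE 0.32, adjusted p = 0.00272), Nr4a2 (3.47, SE 0.54, adjusted p = 0.0108) and Dusp6 (0.44, SE 0.11, adjusted p = 0.0461). The list had a median of 0.30 in males and of 0.37 in females. In females edgeR called 0 of them, with 9 at an unadjusted p under 0.05 and 2 calls by DESeq2. Without Cre male 2, the male calls were 3, for Jun, Bdnf and Nr4a2.

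Cortical genes differed in the same libraries as Ccn2, Ccn3 and Adcyap1. Like all lists here, the cortical list was chosen with earlier results of these data known. Of 14 cortical excitatory neuron genes, 11 rose in males and 0 fell by edgeR, and DESeq2 called 11, with a median log2 fold change of 3.74, against 0.063 in females with 0 calls by edgeR, 1 gene at an unadjusted p under 0.05 and 0 calls by DESeq2. Slc30a3, a synaptic zinc transporter, stood at 23.3, 26.3 and 5.83 CPM in Cre males, against 0.204, 0.370 and 0.535 CPM in GFP males (5.59, SE 0.78, adjusted p = 0.00825). Emx1, a transcription factor of cortical excitatory neurons (3.64, SE 0.48, adjusted p = 0.00493), Nptx1 (2.13, SE 0.32, adjusted p = 0.0108) and Rorb (0.64, SE 0.11, adjusted p = 0.0137) also rose. Slc17a7, which loads glutamate into synaptic vesicles of cortical cells, was singled out after its values were seen. It stood at 428, 409 and 168 CPM in Cre males, against 1.29, 2.76 and 15.3 CPM in GFP males. Cre male 3 was lowest of the Cre males in Slc17a7, Slc30a3, Ccn3, Ccn2 and Adcyap1, but highest in Ccn1. Of 9 genes for layers 6 and 6b, where Ccn2 is a marker, Cplx3 (3.30, SE 0.53, adjusted p = 0.0112) and Nxph4 (1.68, SE 0.30, adjusted p = 0.0134) rose by edgeR, DESeq2 called 4, and the median was 0.048. Of these 9 genes, 5 were on the positive and 4 on the negative side. The 10 genes listed for these layers summed to less in Cre males (330 to 471 CPM) than in GFP males (524 to 549 CPM). The medium spiny neuron genes were all on the negative side, 14 of 14 with a median of -0.34, and edgeR called Isl1 (-0.65, SE 0.11, adjusted p = 0.0115), with 3 genes at an unadjusted p under 0.05 and 2 calls by DESeq2. The 9 choroid plexus and ependyma genes tested gave 0 calls by edgeR, 5 at an unadjusted p under 0.05 and 4 by DESeq2, with a median of 1.96. Of 15 mural and fibroblast genes, cells in which Ccn1 and Ccn2 are often high, Myh11 fell by edgeR (-0.61, SE 0.12, adjusted p = 0.0192), DESeq2 called 1, and the median was -0.00. Without Cre male 2, the library rich in choroid plexus genes, 5 cortical genes (Emx1, Slc30a3, Nptx1, Rorb and Fezf2), Cplx3, Nxph4 and Vip passed. Isl1 remained lower without that library, while Slc17a7 and Myh11 did not pass. Of the 14 medium spiny neuron genes, 3 were then on the positive side, with a median of -0.096. The 9 choroid plexus and ependyma genes then had a median of 0.45, with 6 on the positive side. So the size of both list medians in males rested largely on Cre male 2.

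**Figure D3:**
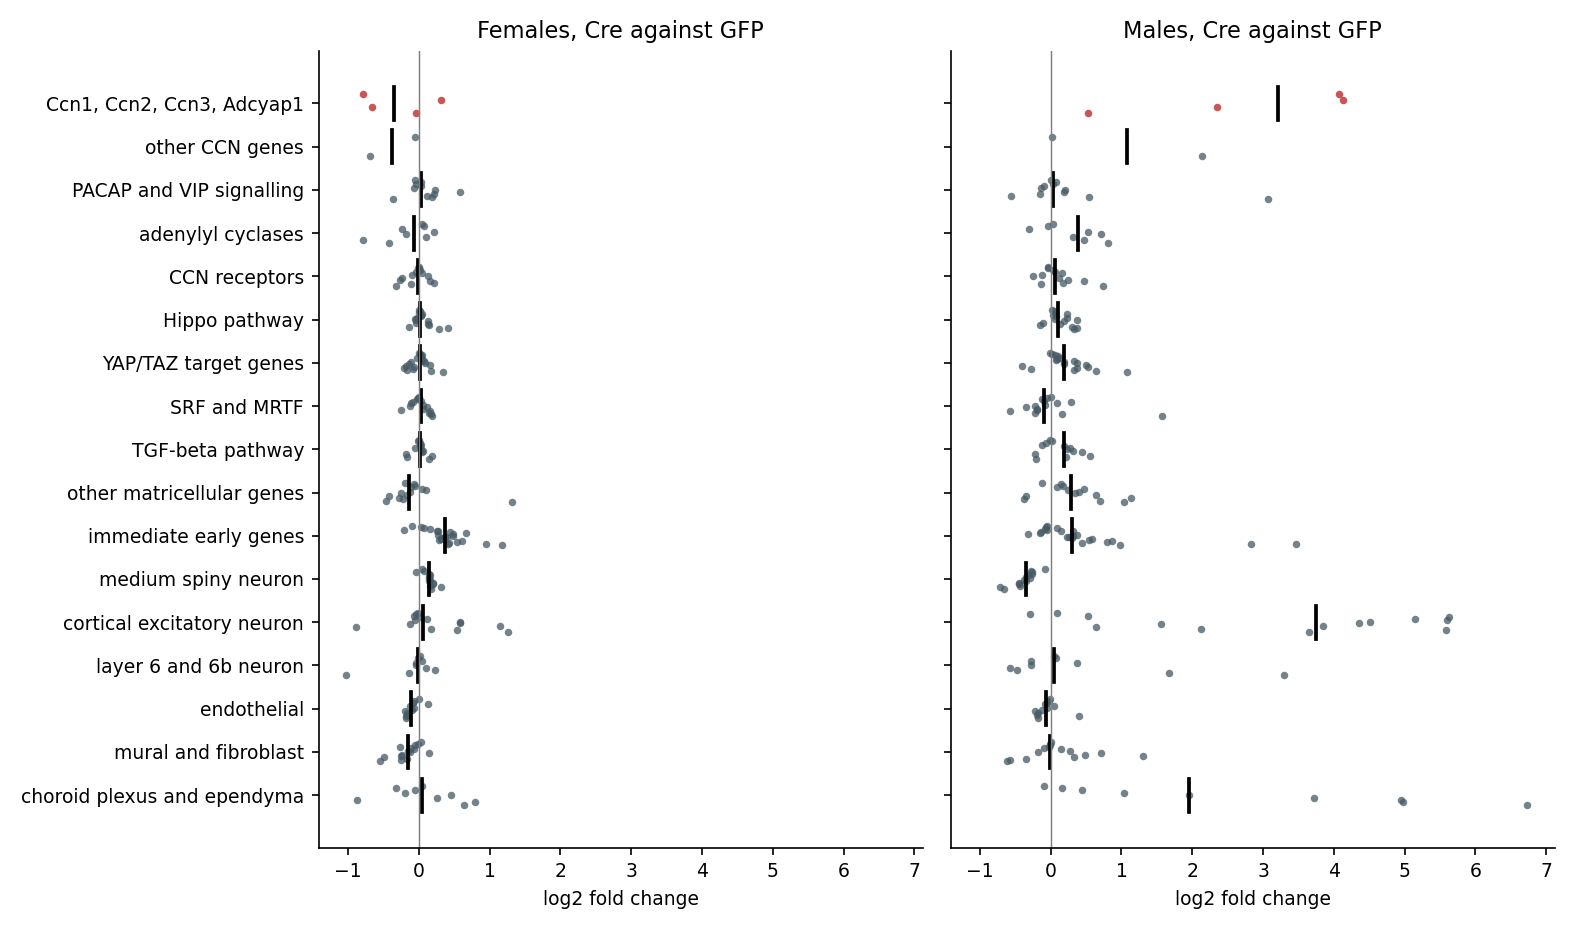
Log2 fold change of Cre against GFP for each tested gene of each list (points), in females (left) and males (right), with the list's median as a black bar and the 4 genes in red. In males the cortical excitatory neuron genes have a median of 3.74, in females of 0.063, while the Hippo pathway genes have a median of 0.10 in males.

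The cortical genes were also used as a term in the fit. With the mean log2 CPM of the cortical list as a covariate, the male log2 fold change was 0.54 (SE 0.68) for Ccn3, 1.62 (SE 0.58) for Ccn2, 2.46 (SE 0.82) for Adcyap1 and 1.07 (SE 0.35) for Ccn1. The covariate was 4.02 to 5.03 in Cre males, against 1.14 to 2.85 in the other 9 floxed libraries, with no overlap, and in this fit 0 genes were called in males. With the mural and fibroblast list as the covariate, the values were 4.02 (SE 0.63), 2.37 (SE 0.26), 4.10 (SE 0.39) and 0.53 (SE 0.17) in the same order of genes. As the cortical covariate sets the Cre males apart from all other floxed libraries, the fit with it cannot tell cortical RNA apart from Cre in males. The part of cortical RNA in the levels of the 4 genes was not tested.

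**Figure D4:**
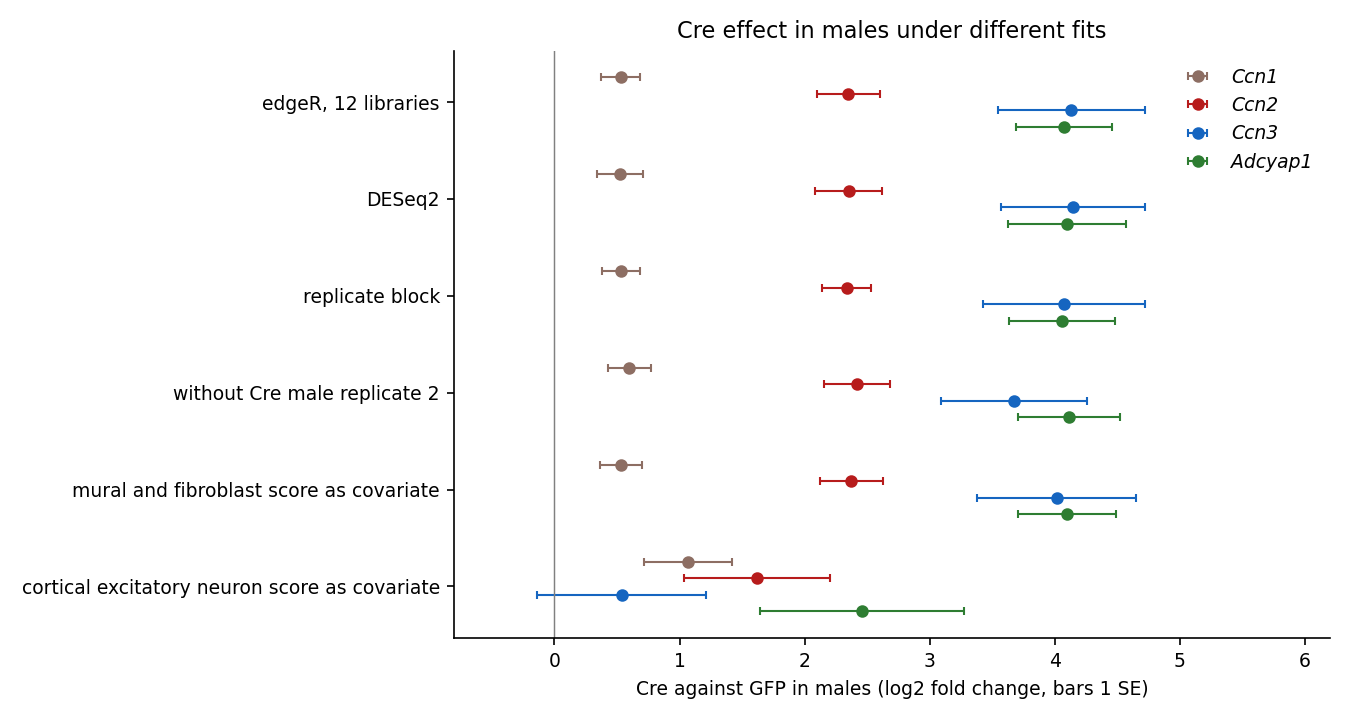
Log2 fold change of Cre against GFP in males for the 4 genes under 6 fits, with bars of 1 SE. With the cortical score as covariate, the values are 0.54 for Ccn3, 2.46 for Adcyap1, 1.62 for Ccn2 and 1.07 for Ccn1.

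The wild-type libraries give a second look at these genes. The rule of choice did not use them, though earlier results of these data were known when the genes were chosen. Stressed mice had less Ccn1 than controls in both sexes by library ranges, but the difference did not pass. Ccn1 stood at 3.52, 3.23 and 2.09 CPM in stressed females, against 4.46, 4.73 and 4.06 CPM in control females. In males it stood at 3.43, 2.17 and 3.13 CPM with stress, against 4.90, 4.89 and 4.26 CPM in controls. These values rest on 15 to 31 counts in stressed and 40 to 46 in control females, and on 20 to 35 in stressed and 45 to 50 in control males. The spread was 25.7% of the mean in stressed females and 22.6% in stressed males, where counting error alone would give 20.4% and 18.9%. In control females and males it was 7.70% and 7.87%, below a counting error of 15.2% and 14.5%. No stressed library reached its control range in either sex, which was so for 53 of the 15249 genes tested (0.348%). Stressed libraries lay below all controls for 2.58% of genes in females and 4.24% in males. The log2 fold change was -0.58 (SE 0.24) in females, -0.68 (SE 0.24) in males and -0.63 (SE 0.17) for the mean of both sexes. In edgeR's quasi-likelihood fit across all genes the adjusted p of that mean was 0.9997, and Ccn1 ranked 35 by p. Of all genes, 489 (3.21%) had an unadjusted p under 0.05 in this comparison and 2 (0.0131%) were called, Fos and Npas4. Within females 0 genes (0%) were called, with 256 (1.68%) at an unadjusted p under 0.05 and 2 calls by DESeq2, and within males 1 (0.00656%). The difference of the stress effect between the sexes was 0.10 (SE 0.34), where 0 genes (0%) passed by edgeR and 182 (1.19%) had an unadjusted p under 0.05.

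Other genes differed in the same direction as Ccn1. All 22 tested immediate early genes were on the negative side with stress (median log2 fold change -0.55), with 15 at an unadjusted p under 0.05 and 9 calls by DESeq2. EdgeR called 2, which fell, Fos and Npas4, an activity-induced transcription factor (-0.999, adjusted p = 0.0156). Fos stood at 7.09 to 8.85 CPM in stressed females, against 16.8 to 21.3 CPM in control females, and at 6.16 to 6.95 CPM in stressed males, against 14.9 to 25.8 CPM in control males (log2 fold change of the mean -1.47, SE 0.15, adjusted p = 0.00234). The mural and fibroblast genes summed to 247 to 271 CPM in stressed females, against 282 to 299 CPM in control females, and to 303, 284 and 279 CPM in stressed males, against 292, 302 and 445 CPM in control males, so that control male 3 alone lay above the stressed males. That library also stood apart in the choroid plexus and ependyma genes, with a summed 2645 CPM, followed by control male 2 with 1095 CPM, against 46.6 to 581 CPM in the other wild-type libraries. In the mean stress effect these genes were negative in 9 of 9 (median log2 fold change -1.04, 0 calls by edgeR and by DESeq2, 0 at an unadjusted p under 0.05). The mean log2 fold change of Ccn1 was -0.65 without control male 3 and -0.61 without control male 2. With the mural and fibroblast list as a covariate, the mean log2 fold change of Ccn1 was -0.45 (SE 0.21), and with the cortical list it was -0.71 (SE 0.20). The part of these genes in the Ccn1 values was otherwise not tested.

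Ccn2 and Ccn3 did not pass in any wild-type comparison, and 1 control library set most of their difference in females. Ccn2 stood at 3.25, 2.29 and 3.76 CPM in stressed females, against 3.75, 13.9 and 4.67 CPM in control females (log2 fold change -1.27, SE 0.46, adjusted p = 0.9999 in edgeR's fit). In males it stood at 3.24, 3.26 and 2.48 CPM with stress, against 4.59, 1.85 and 3.75 CPM in controls (-0.19, SE 0.48). Ccn3 stood at 3.39, 4.79 and 6.68 CPM in stressed females, against 4.05, 13.4 and 5.48 CPM in control females (-0.63, SE 0.42), and at 3.73, 5.86 and 4.10 CPM in stressed males, against 6.16, 3.15 and 5.45 CPM in control males (-0.12, SE 0.42). The high library was control female 2 for both genes. Without it, the female log2 fold change was -0.46 for Ccn2 and 0.049 for Ccn3. Control female 2 also had the most cortical RNA of the wild-type libraries, with 109 CPM of Slc17a7, against 4.71 to 41.0 CPM in the other wild-type libraries. Its Adcyap1, at 0.412 CPM, and its Ccn1, at 4.73 CPM, were within the range of the other control libraries.

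Adcyap1 was too low in wild-type libraries, with 2 to 13 counts each, to pass the filter, and its values come from a fit with no filter. It stood at 0.271, 0.833 and 0.696 CPM in stressed females, against 0.405, 0.412 and 0.609 CPM in control females, and at 0.294, 1.41 and 0.216 CPM in stressed males, against 0.730, 0.434 and 0.681 CPM in control males. The groups overlapped in both sexes, with log2 fold changes of 0.34 (SE 0.65) in females and 0.046 (SE 0.61) in males, so no difference was detectable at this depth. Between the sexes, females minus males over both wild-type groups, the log2 difference was -0.031 (SE 0.17) for Ccn1, 0.58 (SE 0.33) for Ccn2, 0.37 (SE 0.30) for Ccn3 and -0.23 (SE 0.44) for Adcyap1. None passed, and 6 genes of all tested did (0.0393%).

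The pathway genes around the 4 did not pass with stress in the mean of both sexes. EdgeR and DESeq2 each called 0 of the 11 PACAP and VIP, 13 CCN receptor, 15 Hippo, 19 YAP and TAZ target, 15 SRF and MRTF, 13 TGF-beta and 14 other matricellular genes. At an unadjusted p under 0.05 there was 1 gene each among the PACAP and VIP, the YAP and TAZ target and the matricellular genes, and 0 among the rest. Of all 15249 genes tested, edgeR called 2 (0.0131%), and 489 (3.21%) had an unadjusted p under 0.05. With so few calls over all genes, nothing about these lists is read from their counts.

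Over all 8 groups, which differ in genotype, virus and depth between the experiments, the order of mean CPM was different for each gene. For Ccn3 it ran from Cre males (51.5 ± 30.7 CPM) over control females (7.64 ± 5.02), stressed females, control males, stressed males, Cre females and GFP females to GFP males (2.91 ± 0.74; SD, n = 3 each), and Cre males alone were clear of their neighbour. Adcyap1 was highest in Cre males (3.44 ± 0.97 CPM), then came the 4 wild-type groups, and then GFP females, Cre females and GFP males (0.198 ± 0.060). Neighbours at those 2 steps, Cre males with stressed males and control females with GFP females, did not overlap. Other wild-type libraries did reach the floxed range. Stressed female 1 (0.271 CPM) and stressed males 1 and 3 (0.294 and 0.216 CPM) lay below GFP female 1 (0.400 CPM). Ccn2 was highest in Cre males (9.29 ± 2.17 CPM) and lowest in Cre females (1.60 ± 0.13), and all neighbours in its order overlapped. Ccn1 was highest in control males (4.68 ± 0.37 CPM) and lowest in stressed males (2.91 ± 0.66), and the one step without overlap was between Cre females (4.05 ± 0.46) and GFP males (3.14 ± 0.14).

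Across libraries, Ccn2 followed Ccn3 in both experiments. Pearson's r of log2 CPM between Ccn2 and Ccn3 was 0.91 over the 12 floxed libraries and 0.87 over the 12 wild-type libraries. The wild-type r includes control female 2, with 13.9 CPM of Ccn2 and 13.4 CPM of Ccn3. Other wild-type libraries held at most 4.67 and 6.68 CPM, and r without control female 2 was not computed. Adcyap1 had r = 0.96 with Ccn2 and 0.93 with Ccn3 in the floxed libraries, but 0.01 and 0.35 in the wild-type ones, where its counts were few. Ccn1 had r = 0.37 to 0.53 with the others over floxed libraries, and -0.35 to 0.28 over the wild-type ones. These are descriptions over libraries that share groups and depth. The genes were chosen on the floxed libraries, where Ccn2, Ccn3 and Adcyap1 were all high in the Cre males. Their high floxed r follows in part from that choice, and nothing is read from it.

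Among 13043 genes, those whose pattern was most like each gene differed in the same way. In floxed libraries, Ccn3 was most like Fhl2 (r = 0.99) and Cck, the cholecystokinin gene (r = 0.98), Adcyap1 most like Vxn (r = 0.97) and Ccn2 (r = 0.96), and Ccn2 most like Scube1 (r = 0.96). Over the wild-type libraries these r were lower. They were 0.27 for Ccn3 with Fhl2, 0.65 for Ccn3 with Cck, 0.31 for Adcyap1 with Vxn and 0.60 for Ccn2 with Scube1. In wild-type libraries, Ccn2 was most like Ccn3 (r = 0.87) and Reln (r = 0.83), and Ccn3 most like Fbxl21 (r = 0.89), with Nptx1 (r = 0.85) and Slc17a7 (r = 0.81) also among its nearest 5. The r of Ccn3 in the floxed libraries was 0.95 with Slc17a7, 0.86 with Nptx1 and 0.42 with Fbxl21, and that of Ccn2 with Reln was -0.084. Ccn1 was most like other genes, Amacr (r = 0.89) in the floxed libraries and Gm12992 (r = 0.94), Pde10a (r = 0.88) and Arc (r = 0.86) in the wild-type ones. The likeness of Ccn1 to Pde10a and Gm12992 did not carry over to the floxed libraries (r = -0.061 and -0.062), and its r with Arc was 0.44 there. With Amacr, its r was -0.25 in the wild-type libraries. The floxed values of Ccn2, Ccn3 and Adcyap1 include the Cre males, where these genes were high by the choice. The wild-type values of Ccn2 and Ccn3 include control female 2, the highest wild-type library for both.

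Within the 8 groups, where Cre and stress do not differ, the library with the most Ccn3 was also that with the most Slc17a7 in 7 groups. For Ccn2 and for Adcyap1 this was so in 6 groups each, and for Ccn1 in 2. Slc17a7 was chosen for this count after its values were seen. With 3 libraries in each group, any gene can match in some groups by chance, and the share over all genes was not computed. For Adcyap1 the wild-type libraries held only 2 to 13 counts each. With the summed level of the whole cortical list in its place, the counts were 4 for Ccn3, 4 for Ccn2, 5 for Adcyap1 and 3 for Ccn1.

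**Figure D5:**
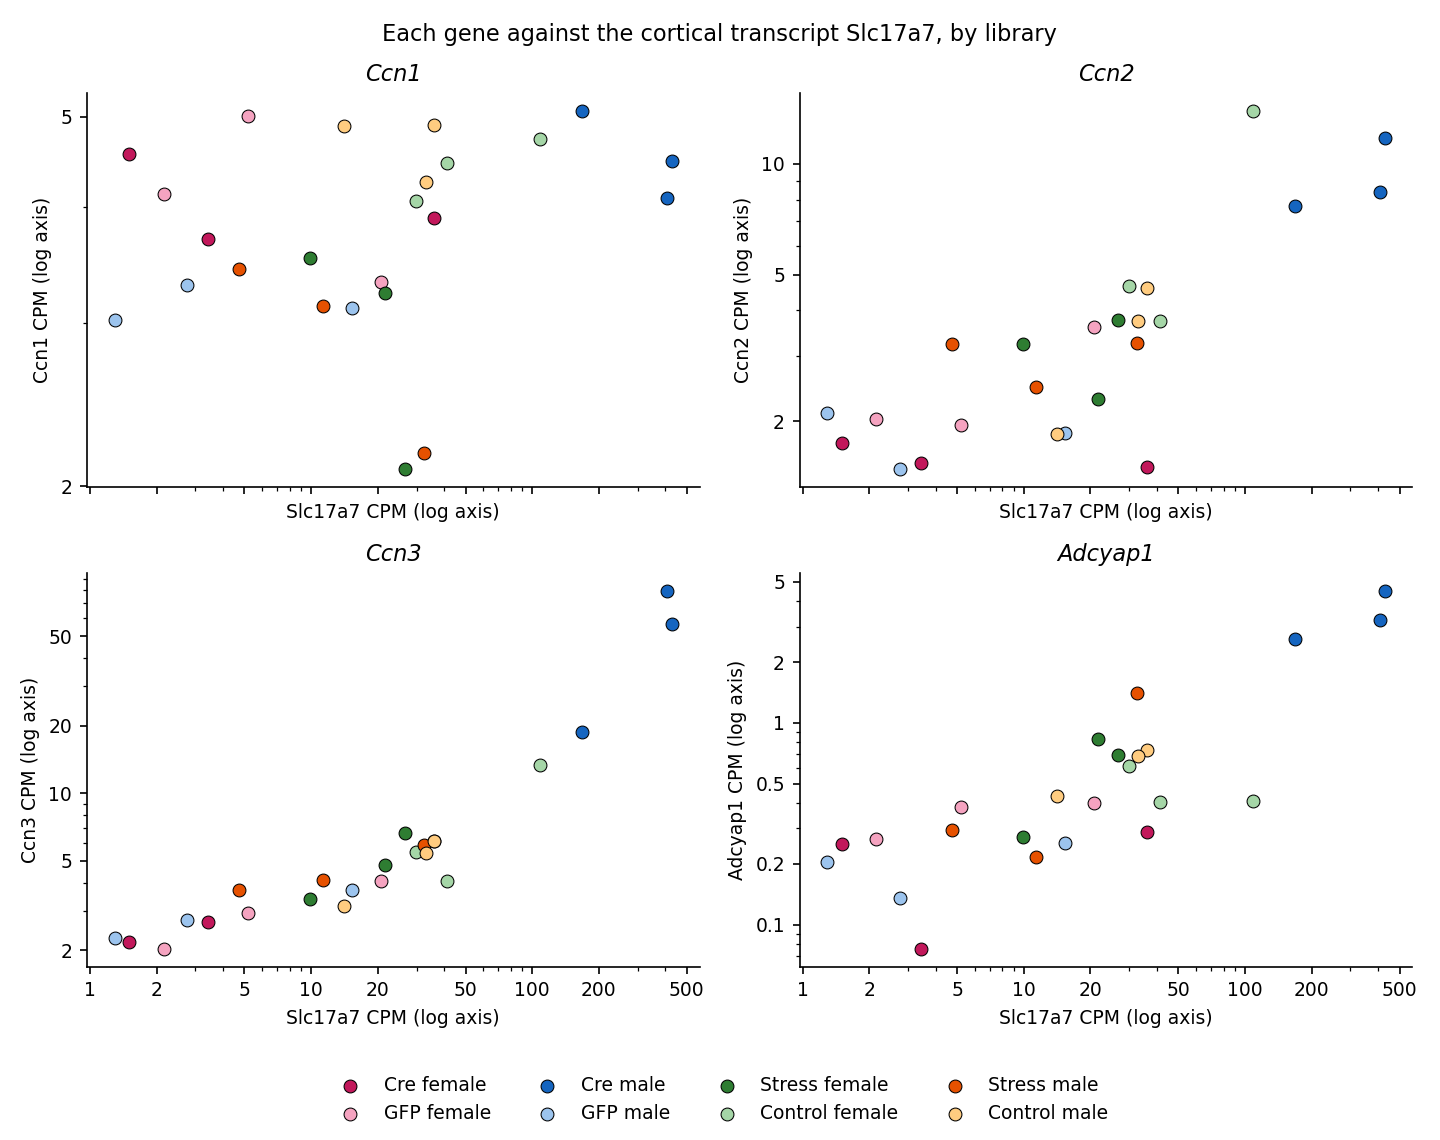
CPM of each gene (vertical log axis) against CPM of Slc17a7 (horizontal log axis) in the 24 libraries, coloured by group. The Cre males have the most Slc17a7 (168 to 428 CPM) and the most Ccn3 (18.7 to 79.4 CPM), and their Ccn1 (4.09 to 5.07 CPM) lies among that of other libraries.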

How the data were processed

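RNA sequencing of pooled nucleus accumbens mRNA was analysed from the deposited table of counts per Ensembl gene, whole numbers whose totals differ between libraries. The submitters' processing notes name Bowtie2 2.1.0, TopHat2 2.0.9, HTSeq 0.6.0 and the builds NCBIM37 and mm9, with no settings; the strand setting of counting is not given in the sources used here. Symbols, exon lengths and overlaps came from GENCODE M21 by Ensembl ID (32919 IDs matched, 5072 did not). The 4 genes and all gene lists were chosen with earlier results of these data known. Some genes stand in 2 lists (Acta2, Tagln, Lats2, Amotl2 and Tgfb2).

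Each experiment was fitted alone in R 4.3.3 with edgeR 4.0.16: filterByExpr, TMM factors, and a robust quasi-likelihood model with a mean for each of its 4 groups. Genes were called at a Benjamini-Hochberg adjusted p below 0.05 over 17597 (floxed) or 15249 (wild-type) genes. CPM are counts per 1000000 of TMM-scaled library size. From each list, genes called were named by smallest p, up to 4, or otherwise up to 3; the PACAP receptors and Slc17a7 were named outside this rule. Likeness used genes of mean log2 CPM of at least 1 in both experiments (Adcyap1 excepted), prior count 2. The fits were tested on simulated data. Alternatives were RLE scaling, DESeq2 1.42.0, no filter, only the groups compared, the replicate number as a block, a cortical or a mural score as covariate, each library left out and, added after seeing the data, the lists without Cre male 2. Adcyap1 in wild-type mice comes from a fit with no filter. Replicate numbers are not stated to pair libraries. Same-numbered libraries of the wild-type females deviated together (r = 0.59, 0.33 and 0.52), but not all those of wild-type males (lowest r 0.09) or floxed mice (r = -0.45 to 0.11). A p-value measures the spread between libraries of pooled mice. Counting error is the only error that the depth comparison covers.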

Additional observations from a re-analysis of the deposited data

Results flagged for a closer look

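Ccn2 was lower with Cre in every female library and higher with Cre in every male library than in every GFP library of the same sex. Its log2 difference of the Cre effect, females minus males, was -3.02. No p-value is given for it, because Ccn2 was chosen for this difference, and it was not tested on libraries outside that choice. In females the separation rests on a narrow gap, and the female log2 fold change was -0.82 to -0.32 when single libraries were left out. Such opposite separation was seen for 249 of 17597 genes (1.42%).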

How the results depend on the processing

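In males, the log2 fold changes with Cre kept their sign under all alternatives run, but with the cortical score as covariate they were 1.07 (Ccn1), 1.62 (Ccn2), 0.54 (Ccn3) and 2.46 (Adcyap1), and the differences between the sexes were -1.09, -2.27, -0.39 and -3.33. With that covariate 0 genes were called for Cre in males, for its difference between the sexes and for stress in males, and 1 for the mean stress effect. Under that covariate, values changed sign for Ccn3 with stress in females (0.35) and in the mean (0.17), for the stress difference between the sexes of Ccn1 (-0.030) and Ccn3 (0.37), and for females against males of Ccn1 (0.050) and Ccn3 (-0.16). With the mural score, females against males of Ccn1 was 0.14, and the calls were 0 for the Cre difference between the sexes and 1 for the mean stress effect. No wild-type result of Ccn1, Ccn2 or Ccn3 passed under any alternative.

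DESeq2 called 32 genes for Cre in females, 1776 in males and 610 for their difference, and 2 for stress in females, 4 in males, 12 in the mean and 13 for sex. Without a filter the calls were 43 for the Cre difference, 5 and 3 for stress in females and males, 12 for the mean and 14 for sex. With only the groups compared they were 551 for Cre in males and 0 for stress in males. With the replicate number as a block they were 515 for Cre in males, 1 for the Cre difference and 4 for the mean stress effect. The block changed no call of Ccn1, Ccn2 or Ccn3 in the wild-type comparisons.

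Leaving out single libraries gave 93 (without GFP male 2) to 1303 (without Cre male 3) calls for Cre in males and 0 to 500 for the Cre difference. It gave 0 to 1 for stress in females and in males, 1 to 3 for the mean and 5 to 6 for sex. Over these fits Ccn3 ranged from -0.93 to 0.049 with stress in females, from -0.35 to 0.068 in males and from -0.83 to 0.15 in their difference. Ccn2 with stress in males ranged from -0.47 to 0.075, Ccn1 from -0.070 to 0.29 in the stress difference and from -0.12 to 0.061 for females against males. The causes were not tested. Depth limits Adcyap1 most, with 2 to 14 counts outside the Cre males.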
